A study of Mus musculus with 11 samples.

Results

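The liver response to a mimic of the microRNA miR-30c was measured against the response to a scramble oligomer, as a comparison of 4 mimic libraries with 3 scramble libraries out of 11 liver libraries, over all 13636 rows of the deposited gene table. The libraries were taken by their sample titles, and no measured value entered that choice. All groups were livers of male C57BL/6J mice, an inbred laboratory strain. Western diet feeding began at an age of 8 weeks and had lasted 1 month when the injections began. The mimic group then received the miR-30c mimic and the scramble group a scramble oligomer, both over 6 weeks at doses that rose from 2.5 through 5.0 to 7.5 mg/kg. A further 4 libraries came from mice injected with PBS on the same diet, and their values are given as a background. The labels name no carrier for the oligomers. They also leave unstated whether every library is from its own mouse, and p-values cover only the spread among the libraries. All values come from whole liver, in which fewer cells of a type and less RNA per cell cannot be told apart.

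MicroRNAs are short RNAs that guide Argonaute proteins to messenger RNAs, mostly to sites in the 3′ UTR that pair with the seed, bases 2 to 8 of the microRNA. Pairing lowers the stability and translation of the message, and a mimic is a synthetic duplex that supplies the same guide strand. miR-30c is one of a family of microRNAs with the same seed. In liver it is best known for its site in Mttp, the microsomal triglyceride transfer protein that loads lipid onto apolipoprotein B, and a scramble oligomer controls for the injection of an oligonucleotide without that seed. Oligonucleotides can also be sensed by Toll-like receptors and cytosolic RNA receptors, which induce interferon and acute phase genes.

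The mature strands are shown first because the site classes used below follow from their seeds, which are in capitals. They were taken from RefSeq.
mmu-miR-30c-5p: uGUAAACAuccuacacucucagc
mmu-miR-30a-5p: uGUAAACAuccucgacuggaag
mmu-miR-30e-5p: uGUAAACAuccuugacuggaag
miR-30a and miR-30e shared the seed with miR-30c and each differed from it at 6 other positions. The mature miR-30c sequence lies at chr1:23291714-23291736 on the plus strand and at chr4:120769584-120769606 on the minus strand of GRCm38.p6. A site was called an 8mer where the UTR held TGTTTACA, the match to bases 2 to 8 followed by an A. A 7mer-m8 was TGTTTAC without that A, and a 7mer-A1 was GTTTACA without the match to base 8.

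The next sequences are sites in annotated 3′ UTRs of GRCm38, written in the sense of the mRNA with the 8mer in capitals. The set holds reported lipid targets of miR-30c (Mttp, Elovl5, Lpgat1) and another reported family target that fell (Bnip3l). A reported target that did not pass the test (Galnt7) is included too. The rest are 8mer genes that fell and were chosen after their values were seen (Ptp4a1, Sec24a, Atxn1, Lifr). Galnt7 and Atxn1 each hold another 8mer that is not shown.
Mttp, chr3:138090972-138090996, minus strand: ctgagagcacagTGTTTACAtattt
Elovl5, chr9:77984301-77984325, plus strand: agttgcggcatcTGTTTACAtttcc
Lpgat1, chr1:191779109-191779133, plus strand: agcccagtaccaTGTTTACAtgtgc
Bnip3l, chr14:66985513-66985537, minus strand: aagctttattccTGTTTACAatttg
Galnt7, chr8:57525915-57525939, minus strand: atctgcagtgacTGTTTACAaaact
Ptp4a1, chr1:30942695-30942719, minus strand: gcctgctcactcTGTTTACAtctcc
Sec24a, first site, chr11:51694014-51694038, minus strand: tcagatggctttTGTTTACAaatag
Sec24a, second site, chr11:51693839-51693863, minus strand: agattagaaatgTGTTTACAatctc
Atxn1, chr13:45553405-45553429, minus strand: aggccttttttgTGTTTACAacgga
Lifr, chr15:7196757-7196781, plus strand: acagtgcattacTGTTTACAagaca
The Mttp site carried a second block of pairing. Its first 7 letters, ctgagag, matched bases 16 to 22 of miR-30c, and to miR-30a the longest such run was 3 letters.

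Values are scaled CPM as deposited, read counts relative to a scaled library size, and changes are differences of log2(value + 1), where the added 1 makes those of low genes too small. The 11 libraries differed in depth and composition. The reads counted over all rows ranged from 39705157 to 101380174, with the fewest in mimic replicate 1. Rows of the major urinary proteins held 37.9% to 52.9% of the column totals of the controls. The share was 12.5% in mimic replicate 1 and 11.6% in replicate 4, against 34.8% and 41.3% in replicates 2 and 3. Mimic replicates 1 and 4 also stood apart from 2 and 3 on the second principal component (10.8% of the variance), the first (62%) being the one that separated mimic from control libraries. Markers of hepatocytes were measured for 8 of 8 listed genes, of which Hpx was higher and Cyp2e1 lower in the mimic group. PBS replicate 2 lay nearest to the mimic libraries among the controls on the first component and had high values of MHC class II and some interferon genes. T and NK cell markers matched 0 rows. Fat markers differed widely within groups, Cfd (adipsin) reading 54.7, 115 and 0.718 in the scramble libraries.

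The mimic group differed from the scramble group in 4363 of 13636 genes at an adjusted p under 0.05 (limma), which is 32.0% of the genes tested. Of these, 2363 (17.3%) were higher and 2000 (14.7%) lower in the mimic group, and the median change of all genes was 0.00. Without any scaling beyond library totals, the median gene lay 0.49 higher on the log2 scale and the split became 5498 higher and 110 lower, so that directions here are relative to the median gene. The count was 2824 without scramble replicate 1 and 2548 without mimic replicates 1 and 4. The directions differed in abundance. Among 742 genes with a mean value under 1, 266 were higher and 16 lower, and among 2586 genes with a mean between 20 and 100, 260 were higher and 723 lower. Changes of at least 2-fold were found for 416 higher and 137 lower genes, and changes of at least 4-fold for 52 and 16. The plot of change against level shows this asymmetry. At low values it cannot be told apart from the minimum for entry into the table, which is given below. A gene could meet that minimum through its mimic values alone.

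**Figure D1:**
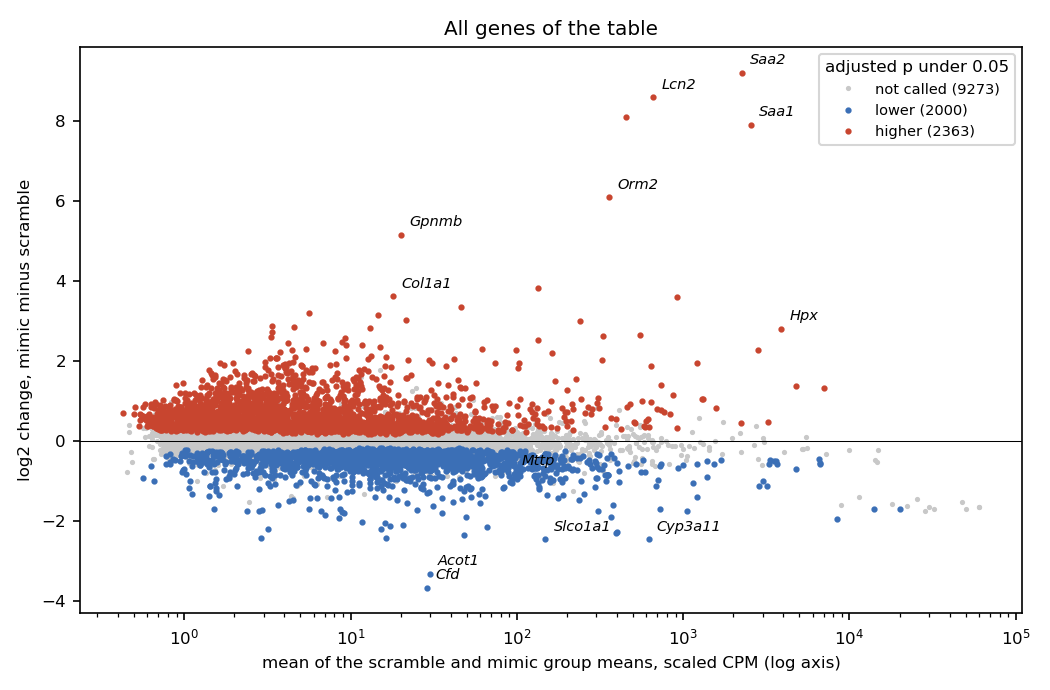
Each point is 1 of 13636 genes, with the mean of its scramble and mimic group means (scaled CPM, log axis) against its log2 change, mimic minus scramble, coloured by the call. Genes called higher lie mostly at low values and genes called lower mostly at higher values, around a median change of 0.00. A gene could enter the table through its mimic values alone, so the excess of higher genes at low values is not a separate result.

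Every row of the table had at least 1 CPM, relative to column totals, in at least 3 libraries. For 1120 genes the controls alone would not have met that minimum, and 536 of these were higher with mimic. For 142 the mimic libraries alone would not have met it, and 51 of these were lower. Over the other 12374 genes, which met it in both sets, 1827 (14.8%) were higher and 1945 (15.7%) lower. A gene that entered the table through its mimic values could hardly be lower there, and counts of immune and matrix groups below are therefore given also for the members that met the minimum in both sets. The values of the mimic and scramble libraries did not overlap in 5560 genes, 40.8% of the genes tested.

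Genes with a miR-30 seed site in their 3′ UTR were lower as a group than genes without one. A UTR was annotated for 11837 of the rows. The median log2 change was -0.14 for 966 genes with an 8mer, -0.09 for 925 genes with a 7mer-m8, -0.07 for 630 genes with a 7mer-A1 and 0.03 for 9316 genes without a site. Of the 8mer genes 26.7% fell and 9.83% rose, and of the genes without a site 12.5% fell and 19.8% rose. The median moved with the number of 7-base matches, from -0.10 with 1 match (1551 genes) to -0.18 with 2 (281 genes) and -0.23 with 3 or more (59 genes). UTRs with an 8mer were long, with a median of 2493 bases against 923 without a site. Within UTRs over 1500 bases, the median was -0.17 for 731 genes with an 8mer and -0.03 for 2993 without a site. Between 500 and 1500 bases the medians were -0.09 (203 genes) and 0.04 (3443 genes), and under 500 bases, with 32 genes having an 8mer, 0.01 and 0.08.

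Per library, the median log2 value of the 8mer genes minus that of the genes without a site, each gene centred on its mean over the groups, lay at 0.0862, 0.0176 and 0.0684 in the scramble libraries. It lay at 0.0625, -0.0150, 0.0638 and 0.132 in the PBS libraries and at -0.156, -0.108, -0.0794 and -0.118 in the mimic libraries. All 4 mimic libraries lay below all 7 control libraries, and mimic replicates 1 and 4 lay below 2 and 3. Without mimic replicates 1 and 4 the median change of 8mer genes minus that of genes without a site was -0.15. It was -0.17 with all libraries. Genes with a match to the seed of the 3p arms of miR-30c, the other strand of the precursor, had a median of -0.02 (1976 genes) against 0.01 for those without. Seed sites were shared unevenly over the calls. At least 1 site was in 33.7% of the 1759 lower genes with a UTR (592 genes), in 13.6% of the higher genes and in 20.6% of the genes not called. Among 117 genes lower by at least 2-fold the share was 22.2% (26 genes), close to the 21.3% of all genes, so that the largest decreases did not hold more sites than all genes did.

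**Figure D2:**
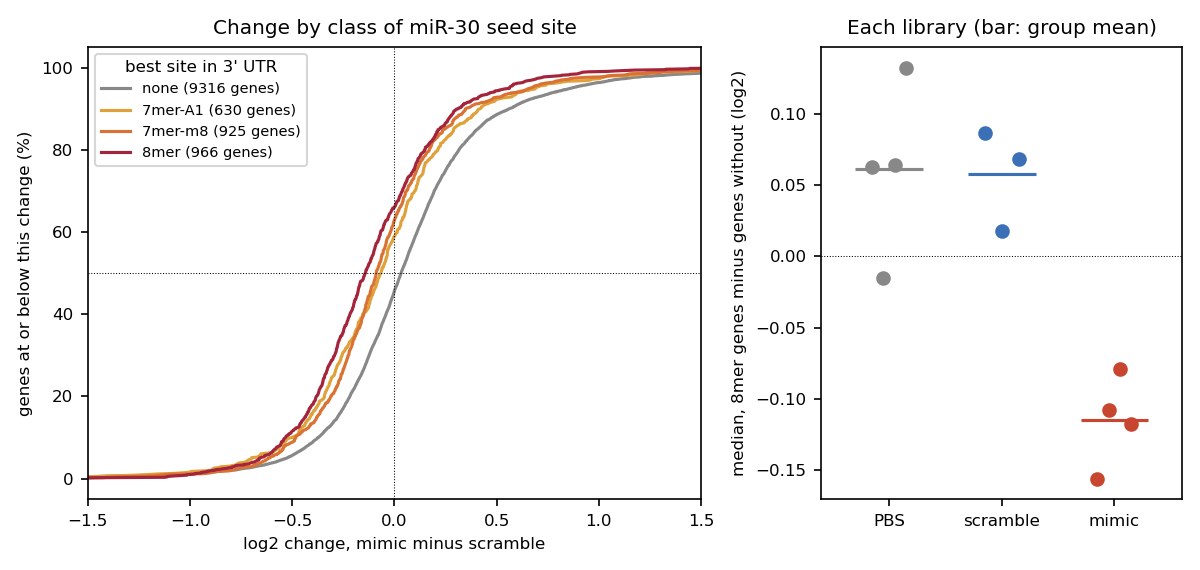
Left, the share of genes (%) at or below each log2 change, mimic minus scramble, by class of seed site. Right, the median of 8mer genes minus that of genes without a site in each library (log2), with a bar at the group mean. The 8mer genes are shifted down by 0.17 at the median relative to genes without a site, and the 4 mimic libraries lie below all PBS and scramble libraries.

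Mttp, at chr3:138089854-138144968 on GRCm38 with its 8mer 71 bases into the 3′ UTR, read 119, 117 and 130 in the scramble libraries and 66.4, 59, 71.5 and 80.1 in the mimic libraries. The PBS libraries read 128, 128, 133 and 143, so that every mimic library lay below all 7 controls. The mean was 122 ± 7.12 (SD, n = 3) with scramble and 69.3 ± 8.83 (SD, n = 4) with mimic, a log2 change of -0.82 (SE 0.10, limma adjusted p = 0.00019). The two-sided exact permutation test over the 35 splits gave p = 0.0286, the smallest these group sizes allow. Relative to library totals alone, where the median gene lay 0.49 higher, the Mttp change was -0.23 and did not pass the test (adjusted p = 0.445).

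Of 4 genes reported as lipid targets of miR-30c, 3 fell. Elovl5, a fatty acid elongase, read 206, 197 and 117 with scramble and 72, 74.1, 100 and 105 with mimic, a change of -0.95 (SE 0.25, adjusted p = 0.014). The groups did not overlap, although scramble replicate 3 lay near the upper mimic values, and the call was lost without scramble replicate 1 (adjusted p = 0.0653) or 2 (adjusted p = 0.0544). Lpgat1, a lysophospholipid acyltransferase, read 161, 129 and 125 with scramble and 98.9 to 110 with mimic (-0.42, SE 0.10, adjusted p = 0.011), and its call was lost without scramble replicate 1 (adjusted p = 0.0532). Relative to library totals alone the Lpgat1 change was 0.17. Stard3 did not pass the test. Over 23 reported miR-30 targets of all kinds the median was -0.15, with 8 lower and 2 higher. Ppp3ca, the catalytic subunit of calcineurin, fell by 0.70 (adjusted p = 0.0001) and Bnip3l, a mitophagy receptor, by 0.56. Xpo1, a nuclear export receptor, and Gnai2, a G protein subunit, rose by 0.44 and 0.42, Xpo1 losing its call without any 1 of 6 libraries (adjusted p from 0.0692 to 0.137). Relative to library totals alone Bnip3l changed by 0.01. Galnt7, a glycosyltransferase with a pair of 8mers, read 128, 137 and 136 with scramble and 146, 158, 132 and 153 with mimic. Its groups overlapped and its change of 0.14 did not pass the test (adjusted p = 0.3). Further reported targets with an 8mer did not pass it either, with changes from -0.28 to -0.07 (limma adjusted p from 0.059 to 0.81).

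Other 8mer genes fell by as much as Mttp. Ptp4a1, a protein tyrosine phosphatase, read 273, 257 and 226 with scramble and 112, 122, 143 and 119 with mimic, a change of -1.02 (SE 0.10, adjusted p = 5.1e-05). Sec24a, which has a pair of 8mers, read 82, 67.8 and 80.5 with scramble and 31.7, 43.5, 47.4 and 39.2 with mimic (-0.92, adjusted p = 0.00083). Neither gene's groups overlapped. Atxn1, which encodes the nuclear protein ataxin-1, fell from 25.4 ± 4.54 (SD, n = 3) to 12.6 ± 0.906 (SD, n = 4), although its PBS libraries (15.1 to 17.3) lay near the mimic ones. Lifr, the receptor of leukaemia inhibitory factor, fell by 1.05 (adjusted p = 0.0034).

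Sec24a is a coat subunit of COPII, the vesicle coat that carries lipoproteins from the endoplasmic reticulum, and further members of that route fell. Sec23a, the coat partner with an 8mer, read 34.6, 32.3 and 39.2 with scramble and 17.5, 21.5, 23.2 and 22.7 with mimic (-0.71, adjusted p = 0.00053). Mia3 (TANGO1, 8mer) and Mia2 (7mer-m8), receptors that load large cargo, fell by 0.78 and 0.69, and Sar1b, the small GTPase of the coat, fell by 0.49 without a site. Mia2 lost its call without scramble replicate 1 (adjusted p = 0.0637), and relative to library totals alone Sar1b changed by 0.09 and none of these 5 coat and cargo genes passed the test. Not all partners moved this way. Sec24c and Apob did not pass the test. Tm6sf2, an endoplasmic reticulum protein of lipoprotein lipidation, rose from 5.03 ± 0.736 (SD, n = 3) to 11.8 ± 1.28 (SD, n = 4), and Apoa2 fell by 0.56 (adjusted p = 0.0047), a change of 0.03 relative to library totals alone. Over the 34 listed genes of lipoprotein assembly, 7 rose (20.59%) and 6 fell (17.65%), with a median of 0.10. These lay near the shares over all genes, 17.3% higher and 14.7% lower. Among 31 genes of the small RNA silencing machinery, 1 rose (Adar, 3.23%) and 3 fell (9.68%), both below the shares over all genes. Ago2, an Argonaute with 3 matches in its UTR, fell by 0.69, Tnrc6b by 0.55 and Cnot6l by 0.39. Ago2 and Tnrc6b lost their calls without mimic replicate 1 or 4 or scramble replicate 1 or 3, at adjusted p from 0.0527 to 0.0969 and from 0.0587 to 0.11. Relative to library totals alone Tnrc6b changed by 0.01 and Cnot6l by 0.17.

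**Figure D3:**
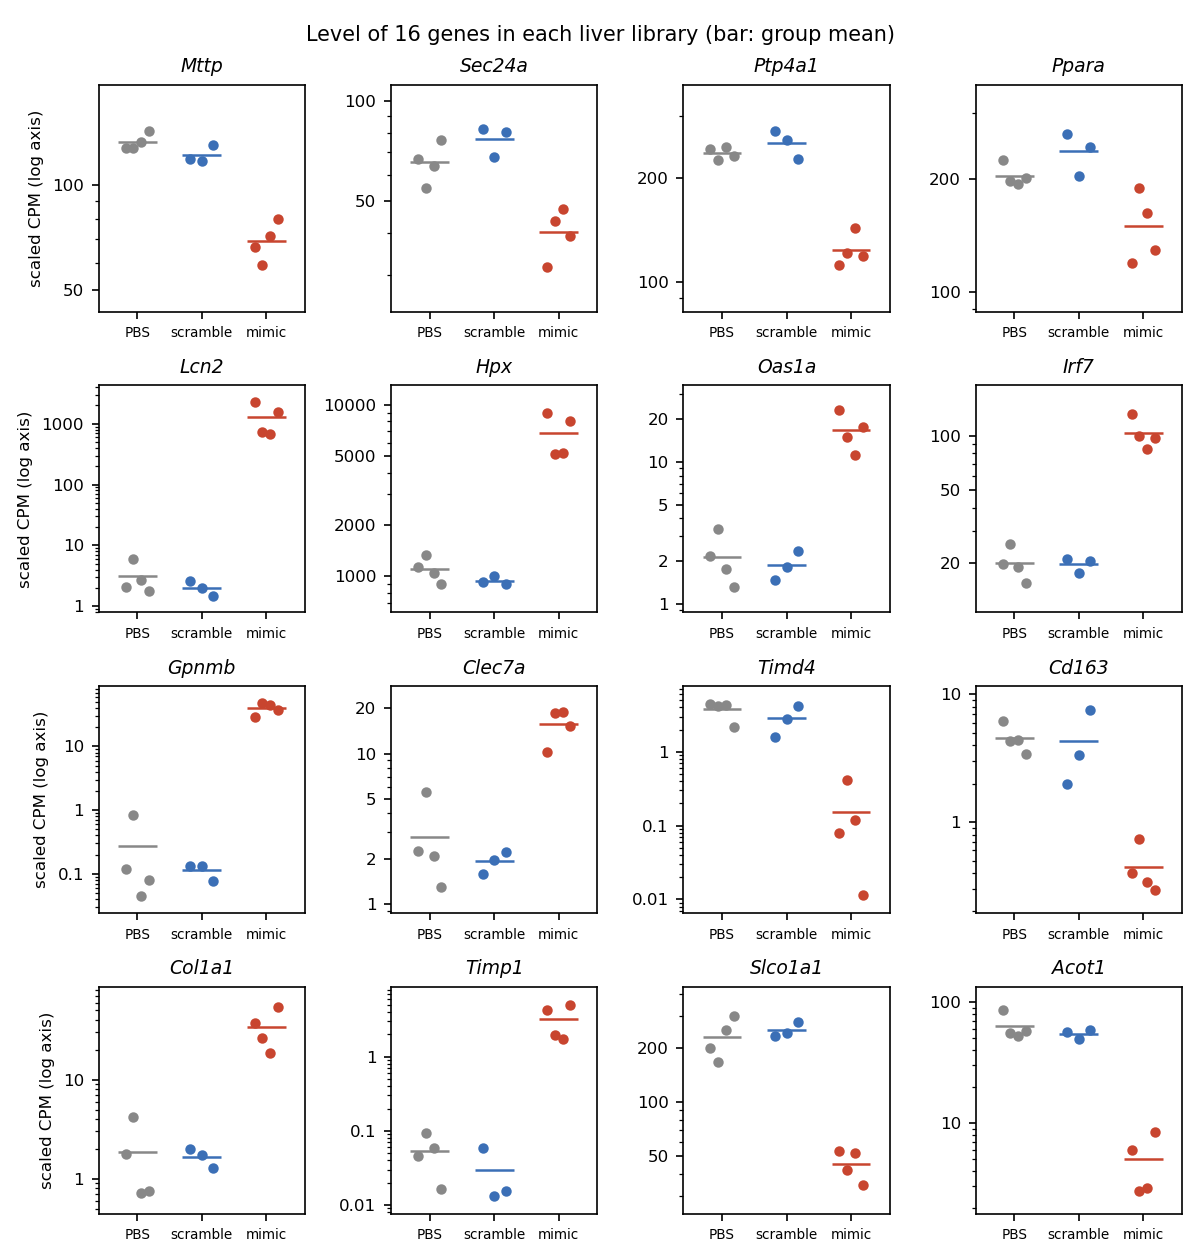
Values of 16 genes in each PBS, scramble and mimic library on log axes, with a bar at each group mean. The 4 mimic values of Mttp, Sec24a and Ptp4a1 lie below all control values, and those of Lcn2, Oas1a and Gpnmb lie above them.

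On the log2(value + 1) scale the 5 largest changes belonged to acute phase genes, which hepatocytes induce through interleukin signals. Lcn2, a siderophore-binding lipocalin (chr2:32384633-32388252), read 2.58, 1.97 and 1.48 with scramble and 2287, 727, 690 and 1552 with mimic. Its PBS libraries reached at most 6.05, and the change was 8.60 on the log2 scale (SE 0.42, adjusted p = 5.6e-07). Saa3, a serum amyloid A protein, rose from 1.91 ± 0.382 (SD, n = 3) to 904 ± 544 (SD, n = 4). Saa1 and Saa2, whose sequences are nearly identical and whose split of reads is uncertain, rose by 7.92 and 9.22. Orm2, an orosomucoid, read 6.48, 9.51 and 7.18 against 1345, 261, 453 and 785 (6.11, adjusted p = 5.7e-06). In Lcn2, Saa3 and Orm2 mimic replicates 1 and 4 lay above 2 and 3, and all 4 lay above every control.

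Of 43 plasma protein genes, 21 rose and 2 fell, with a median of 0.37. Apcs, the amyloid P component, rose from 16.2 ± 7.08 (SD, n = 3) to 253 ± 120 (SD, n = 4). Hpx, which binds haem, read 920, 1004 and 899 with scramble and 8913, 5194, 5214 and 8020 with mimic, and was abundant in both groups (2.82, SE 0.21, adjusted p = 1.2e-05). Hp, which binds haemoglobin, rose by 2.29 and Serpina3n, a protease inhibitor, by 2.66. The carriers Alb and Ttr did not pass the test, and Serpina6, the carrier of corticosteroids, fell by 0.68 (adjusted p = 0.038), a call that was lost without any 1 of 5 libraries (adjusted p from 0.051 to 0.122). Saa4 and Crp, 2 further proteins of the acute phase families, did not pass it either.

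Of 12 genes of metal binding and zinc transport 4 rose, 1 fell and 7 were not called, with a median of 0.11. Mt1 and Mt2, the metallothioneins, buffer zinc and copper. Mt1 read 54.6, 53 and 62.9 with scramble and 321, 228, 218 and 312 with mimic, without overlap (2.21, adjusted p = 3.2e-05), and Mt2 rose by 2.54. Slc39a4, a zinc importer, read 4.08 to 6.86 with scramble and 15.3 to 17 with mimic (1.41, adjusted p = 4.4e-05). Of 24 genes of iron handling 12 rose and 4 fell. Hamp, the hormone hepcidin that closes iron export, read 210, 98.7 and 61.5 with scramble and 450, 343, 298 and 235 with mimic (1.56, adjusted p = 0.019). The scramble libraries alone spanned a range of more than 3-fold, and mimic replicate 4 lay near the highest of them. The Hamp call was lost without scramble replicate 2 (adjusted p = 0.0556) or 3 (adjusted p = 0.0826). Cd163, the macrophage receptor for haemoglobin with haptoglobin, fell by 1.74.

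Complement proteins mark and lyse foreign cells. Of 35 complement genes measured, 17 rose and 4 fell (median 0.30), and 15 rose and 3 fell of the 31 that met the minimum in both sets. The classical pathway had 6 of 9 higher and the regulators 6 of 8, the alternative pathway 2 of 4, with 1 lower, and the terminal components 1 of 7, with 2 lower. Of 5 lectin pathway genes none rose and Fcna, a ficolin of macrophages, fell. Differences between these pathways were not tested. C3, the central component, read 2492, 2619 and 2740 with scramble and 8639, 5879, 5903 and 7093 with mimic (1.38, adjusted p = 0.00016). Cfb, which forms the alternative convertase, rose from 376 ± 25.4 (SD, n = 3) to 757 ± 96 (SD, n = 4). C6, of the membrane attack complex, fell by 0.85, a call that was lost without scramble replicate 3 (adjusted p = 0.114) or mimic replicate 1 or 4. Of 34 coagulation and fibrinolysis genes 13 rose and 3 fell, and 9 and 3 of the 29 that met the minimum in both sets. Cpb2, the inhibitor of fibrinolysis, read 113, 117 and 116 with scramble and 214 to 340 with mimic, without overlap (1.27, adjusted p = 0.00015), and Fga, the fibrinogen alpha chain, rose by 0.84, with adjusted p = 0.055 without scramble replicate 1.

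Many genes of innate sensing and the interferon response rose. Of 38 genes of nucleic acid and lipid sensing 26 rose and 1 fell (Tlr5), with a median of 0.61. Of the 24 that met the minimum in both sets, 13 rose and 1 fell. The 38 hold surface receptors, adaptors and inflammasome genes besides receptors of foreign RNA, and 2 of the 9 adaptors rose. Of 12 cytosolic sensors 11 rose, and 8 of the 9 that met the minimum in both sets. Ifih1 (MDA5), a receptor of long double-stranded RNA, read 17.2, 14.4 and 15.6 with scramble and 22.2 to 30.8 with mimic (0.64, adjusted p = 0.0035). Ddx58 (RIG-I), a receptor of RNA 5′ ends, rose by 0.77. All 8 measured Oas genes, which make the activator of RNase L on binding double-stranded RNA, rose. Of these, 3 were in the table only through their mimic values, Oas3 among them, and 5 met the minimum in both sets, with a median of 2.30. Oas1a read 1.47, 1.82 and 2.34 with scramble and 23.1, 15, 11.2 and 17.6 with mimic (2.59, adjusted p = 3.6e-05), although it shares reads with Oas1g. Oas3 rose from 0.416 ± 0.102 (SD, n = 3) to 3.36 ± 0.924 (SD, n = 4).

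Irf7, the transcription factor that amplifies type I interferon, read 21, 17.7 and 20.5 with scramble and 131, 99.5, 84.4 and 97.1 with mimic. The PBS libraries read 15.4 to 25.4, and the change was 2.31 (SE 0.16, adjusted p = 8.1e-06). All 3 Ifit genes rose. Ifit1, which binds foreign RNA caps, read 8.74, 5.99 and 6.15 with scramble and 44, 9.96, 13.3 and 24.2 with mimic (1.38, adjusted p = 0.024). Mimic replicate 2 lay below the highest PBS library (11.3), so the Ifit1 values were clear of scramble but not of all controls. Its call was lost without mimic replicate 4 (adjusted p = 0.0591) or scramble replicate 2 or 3 (0.0709 and 0.0724). Slfn4, a myeloid Schlafen gene and the smallest p of the table, read 0.089, 0.185 and 0.14 with scramble and 5.73, 6.92, 6.58 and 7.11 with mimic (2.73, adjusted p = 1.8e-08), and was in the table only through its mimic values. All 7 rows named Slfn rose, but 5 of them were in the table only through their mimic values, so that the count says little, and 2 met the minimum in both sets.

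The promoters of 3 of these genes are printed because the genes moved together and carry the motif bound by interferon-induced factors. Each runs from 250 bases before to 50 after the start (RefSeq, GRCm38.p6), with matches to the interferon element (GAAA, any 2 bases, GAAA, searched on both strands) in capitals. In Oas1a a pair of matches overlap, and in Ifit1 and Ifit3 the matches are on the other strand and read TTTC, any 2 bases, TTTC.
Oas1a, chr5:120907476-120907775, minus strand: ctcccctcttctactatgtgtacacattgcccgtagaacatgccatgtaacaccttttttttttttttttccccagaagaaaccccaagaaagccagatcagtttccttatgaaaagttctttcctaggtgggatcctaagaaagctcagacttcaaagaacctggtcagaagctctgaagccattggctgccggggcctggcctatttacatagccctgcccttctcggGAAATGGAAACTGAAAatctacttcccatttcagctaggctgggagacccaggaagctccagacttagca
Ifit1, chr19:34640639-34640938, plus strand: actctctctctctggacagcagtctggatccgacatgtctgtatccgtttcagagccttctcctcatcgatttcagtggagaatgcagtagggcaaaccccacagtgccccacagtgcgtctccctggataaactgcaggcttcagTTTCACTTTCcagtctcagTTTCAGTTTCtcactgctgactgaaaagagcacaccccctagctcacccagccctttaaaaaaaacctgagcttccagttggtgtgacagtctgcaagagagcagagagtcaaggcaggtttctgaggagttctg
Ifit3, chr19:34583279-34583578, plus strand: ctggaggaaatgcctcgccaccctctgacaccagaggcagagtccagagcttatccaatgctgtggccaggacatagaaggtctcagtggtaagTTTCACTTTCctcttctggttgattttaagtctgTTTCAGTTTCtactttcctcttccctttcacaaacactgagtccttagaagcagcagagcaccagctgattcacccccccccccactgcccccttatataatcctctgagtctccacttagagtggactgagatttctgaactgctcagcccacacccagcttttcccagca
The motif was in 3.49% of all 27025 promoters and in 3.22% of the 9449 table rows with a promoter. It was in 5.27% of the higher genes (87 of 1651), 2.47% of the lower genes (34 of 1377) and 2.85% of the genes not called. By group it was in 4 of 6 Oas, 2 of 3 Ifit, 3 of 7 Slfn and 5 of 23 MHC class I promoters, and in 0 of 25 promoters of actin regulators. The kappaB element, searched in the same way, was in 0.381% of the table's promoters and in none of the Oas or Ifit ones. Irf7, Slfn4, Lcn2, Saa1 and Psmb8 held no match to the interferon element in this window, and Saa3 held 1.

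Antigen presentation genes are given by class, and a difference between the classes was not tested. MHC class I displays peptides from the cytosol on all cells, and class II displays ingested peptides on a few specialised ones. Of 30 class I genes 23 rose and 0 fell (median 0.69), and 22 of the 29 that met the minimum in both sets rose. H2-D1, a class I heavy chain, read 197, 224 and 197 with scramble and 400, 440, 356 and 417 with mimic (0.96, adjusted p = 0.0011). Tapbp, which loads the peptide, rose by 1.09, and Psmb8, an immunoproteasome subunit, by 1.15. Without mimic replicates 1 and 4, 13 of the 30 remained called. Of 11 class II genes (median 0.42) only Ctss and Ifi30, lysosomal enzymes that other pathways share, were called higher. That share is near the 17.3% of all genes. H2-Aa read 12.3, 17 and 14.8 with scramble and 11.8, 27.8, 17.2 and 16.5 with mimic, with overlapping groups (0.25, adjusted p = 0.72). PBS replicate 2 read 54.1 for H2-Aa, above every other library. Reads of near-identical H2 chains may be split between copies.

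Macrophage markers moved in opposite directions. Resident Kupffer cells are the self-renewing macrophages of the sinusoids, and Clec4f, Timd4 and Vsig4 define them in mouse. Of 8 Kupffer markers 6 fell and 0 rose, and Cd5l and Marco did not pass the test. Timd4 and Cd163 were in the table only through their control values, and of the 6 markers that met the minimum in both sets 4 fell. Clec4f read 19.2, 26.2 and 38.3 with scramble and 2.02, 8.37, 5.54 and 2.93 with mimic (-2.42, adjusted p = 0.0006). Timd4 fell from 2.84 ± 1.26 (SD, n = 3) to 0.155 ± 0.175 (SD, n = 4) and Vsig4 from 9.11 ± 2.74 to 2.19 ± 1. Cd5l, also a gene of these cells, read 30.8 to 54 with scramble and 28.5 to 52.2 with mimic. The summed level of the 8 genes was 190 to 371 with scramble, 263 to 358 with PBS and 118 to 177 with mimic. The complement gene C6, whose call was lost when some single libraries were left out, is among these 8 and among the 6 that fell. Without mimic replicates 1 and 4, 4 of the 8 were called lower.

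Of 10 markers of recruited or lipid-laden macrophages 9 rose, 5 of them, Gpnmb included, in the table only through their mimic values. Gpnmb, a lysosomal glycoprotein of such cells (chr6:49036546-49070929), read 0.133, 0.132 and 0.078 with scramble and 29.3, 48.1, 45.3 and 36.6 with mimic (5.17, SE 0.20, adjusted p = 9.9e-08). Lgals3 (galectin-3) read 1.93, 2.1 and 2.29 against 25.5, 28.5, 22.1 and 32.5 (3.17). The summed level of the 10 genes was 49.3 to 58.8 with scramble, 39.8 to 72.1 with PBS and 190 to 207 with mimic. Of 8 monocyte markers 7 rose, and all 5 measured neutrophil markers of 11 listed rose. Of these, 6 monocyte and 4 neutrophil markers were in the table only through their mimic values. Ccr2, the receptor of monocyte recruitment, read 0.638, 0.713 and 0.671 with scramble and 3.44, 11.2, 6.47 and 5.11 with mimic. S100a9, a calcium-binding protein of neutrophils and monocytes, rose from 0.309 ± 0.0817 (SD, n = 3) to 8.77 ± 3.15 (SD, n = 4). B cell markers matched 2 rows, neither called. The part of cell composition in the other results was not tested.

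**Figure D4:**
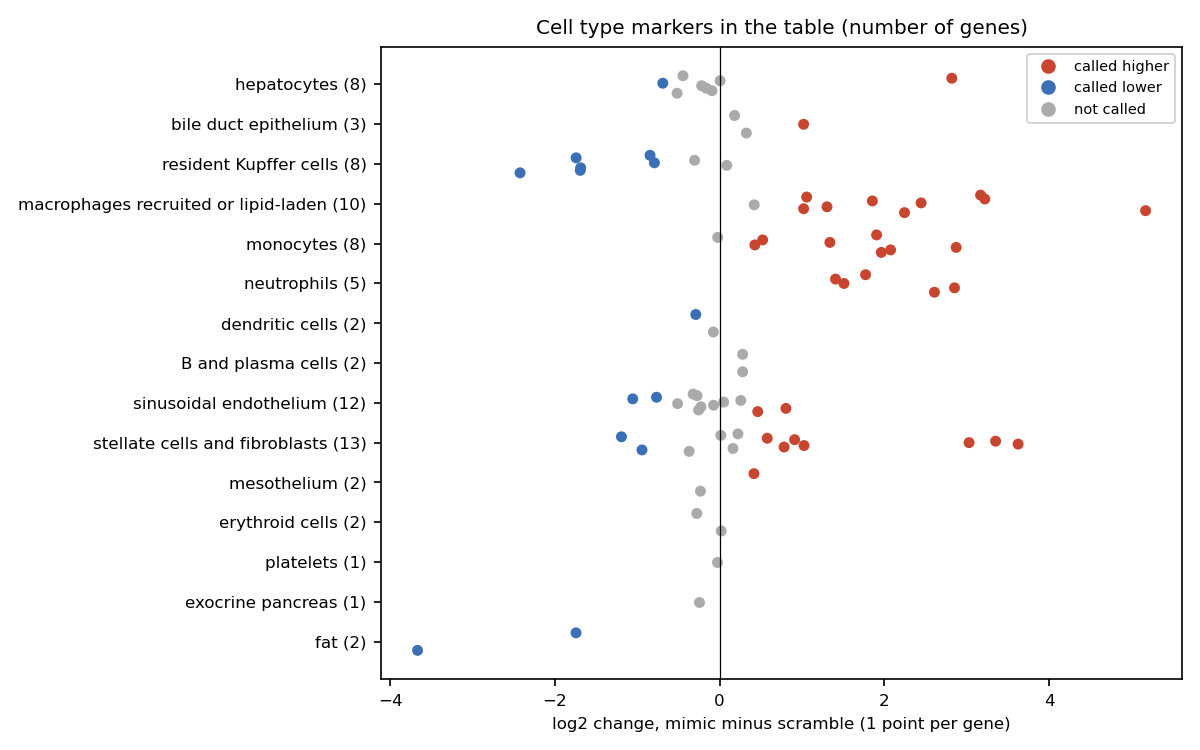
Each point is the log2 change, mimic minus scramble, of 1 marker gene, in a row for each cell type with the number of genes measured and coloured by the call. Kupffer cell markers lie mostly left of 0, and markers of recruited macrophages, monocytes and neutrophils mostly right of it, with Gpnmb at 5.17. Of the latter, 5, 6 and 4 were in the table only through their mimic values and could hardly lie left. For 2 Kupffer markers it was only through their control values.

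The machinery of phagocytes rose with those markers. Of 31 Fc receptor and ITAM genes, through which antibody and glycan receptors signal, 26 rose and 1 fell (Fcgrt, the recycling receptor of IgG, by 0.27 and 0.31 higher relative to library totals), with a median of 0.89. Of the 23 that met the minimum in both sets, 18 rose. Of the 13 kinases and adaptors downstream, 9 met the minimum in both sets and all 9 rose, as did the 4 in the table only through their mimic values. Clec7a (Dectin-1) read 1.57, 1.95 and 2.23 with scramble and 10.2, 18.6, 18.9 and 15.3 with mimic (2.49, adjusted p = 0.00018). Tyrobp (DAP12), the adaptor of Trem2, rose by 1.52, and Syk, the kinase that ITAMs recruit, by 1.08. Unlike the acute phase genes, Clec7a was lowest in mimic replicate 1. All 6 genes of the phagocyte oxidase rose, 2 of them in the table only through their mimic values. Cyba, its membrane subunit, read 1.75, 2.38 and 2.45 with scramble and 8.21 to 11.4 with mimic (1.72, adjusted p = 0.00042).

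Of 29 actin regulators of motile cells 26 rose and 1 fell (median 1.11), and 22 of the 25 that met the minimum in both sets rose. Coro1a (coronin 1A) rose from 1.85 ± 0.208 (SD, n = 3) to 8.89 ± 2.26 (SD, n = 4). Cotl1, which binds filamentous actin and is not among the 29, rose by 1.78. Arpc1b, of the Arp2/3 complex that branches actin, read 8.72, 9.4 and 9.94 against 21.3 to 28.8 (1.29, adjusted p = 2.1e-05). Of 46 lysosomal genes 28 rose and 2 fell (median 0.46), and 25 and 2 of the 42 that met the minimum in both sets. Ctsd, a cathepsin of most cells, read 111, 114 and 106 with scramble and 167, 206, 170 and 186 with mimic, without overlap (0.72, adjusted p = 0.0004). Cd68, a macrophage lysosomal protein, rose by 1.93 and Lyz2 (lysozyme) by 2.04. Npc1, the lysosomal cholesterol exporter, fell by 0.47, with a change of 0.11 relative to library totals alone. Msr1, a scavenger receptor, varied little within groups, at 3.44 to 3.82 with scramble and 9.73 to 10.2 with mimic (1.26), and Cd93, a lectin-like receptor of myeloid and endothelial cells, rose by 2.45.

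Of 41 listed chemokines and their receptors 21 were measured. Of those, 12 rose and 2 fell, and of the 12 that met the minimum in both sets 6 rose and 2 fell. Cxcl9, the interferon-gamma-induced ligand, read 4.6, 4.91 and 3.09 with scramble and 30, 18.9, 14.3 and 26.2 with mimic (2.13, adjusted p = 0.0079), while PBS replicate 2 read 22.2. Cxcl1, a neutrophil attractant, read 0.475 to 0.686 with scramble and 4.38, 1.15, 1.2 and 3.35 with mimic (1.07, adjusted p = 0.015, and 0.0511 without scramble replicate 1). PBS replicate 2 (1.25) lay within the mimic range for both genes. Of 50 genes of cytokine signalling 25 rose and 4 fell (median 0.38), and 20 and 4 of the 44 that met the minimum in both sets. Il1rn, the natural antagonist of interleukin-1, rose by 1.88 and Csf3r, the receptor of granulocyte growth factor, by 1.51. Lifr, Il6st and Il1rap, signalling chains for the cytokines that drive the acute phase, fell by 1.05, 0.43 and 0.44, the changes of Il6st and Il1rap being 0.14 and 0.14 relative to library totals alone. Of 33 genes of cell death 19 rose and 2 fell, and 12 and 2 of the 25 that met the minimum in both sets. Mlkl, the pore of necroptosis, rose by 1.12 and Gsdmd, the pore of pyroptosis, by 0.95. Bcl2l11 (BIM) fell by 0.66 with overlapping groups (adjusted p = 0.044), and lost its call without any 1 of 6 libraries (adjusted p from 0.0532 to 0.191).

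Collagens rose together. Of 32 collagen and collagen processing genes 21 rose and 2 fell (median 0.51), and 19 rose and 1 fell of the 28 that met the minimum in both sets. Of 6 fibrillar collagens 5 rose, with a median of 2.43. Col1a1, which forms the main scar collagen with Col1a2, read 1.99, 1.74 and 1.28 with scramble and 37.8, 26.3, 18.7 and 53.8 with mimic (3.62, adjusted p = 9.1e-05). Col3a1 read 7.82, 8.78 and 5.3 against 77.6, 77.7, 59.8 and 126 (3.35, adjusted p = 3.6e-05). In both the lowest value was that of mimic replicate 3, well above all controls. Serpinh1, the collagen chaperone, rose by 2.08, and Sparc, a collagen-binding matrix protein, by 2.04. Col27a1 fell by 1.63, with PBS libraries from 14.6 to 63.6.

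Of 40 matrix remodelling genes 19 rose and 1 fell, but only 7 of 27 rose among those that met the minimum in both sets (median 0.16). Timp1, an inhibitor of matrix proteases, read 0.0593, 0.0132 and 0.0156 with scramble and 4.32, 1.98, 1.71 and 5.04 with mimic (1.96, adjusted p = 0.00018). Mmp12, the macrophage elastase, rose from 0.26 ± 0.0241 (SD, n = 3) to 11 ± 2.86 (SD, n = 4). Timp3, whose UTR holds an 8mer, fell by 0.94. Of 13 stellate cell and fibroblast markers 7 rose and 2 fell, 6 and 2 of the 12 that met the minimum in both sets. Their sum was 139 to 149 with scramble and 211 to 394 with mimic. That sum includes Col1a1, Col1a2 and Col3a1, the collagens given above. Col3a1 alone went from a mean of 7.3 to 85.4, so the sum is no separate measure of these cells. The sum for sinusoidal endothelium was 108 to 136 and 80.8 to 133. Among 33 genes of TGF-beta, BMP and Notch signalling 4 rose and 3 fell (median 0.02). The activity of these pathways was not tested. Tgfb1 read 1.85, 2.68 and 2.54 with scramble and 6.16, 7.52, 4.77 and 5.3 with mimic (1.04, adjusted p = 0.00038).

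Hepatocyte transcription factors were more often lower than higher. Of 49 hepatocyte transcription factors 15 fell and 1 rose (Srebf2, the cholesterol regulator), with a median of -0.19. Ppara, the fatty acid receptor, read 265, 204 and 243 with scramble and 120, 189, 163 and 129 with mimic (-0.67, adjusted p = 0.0067). Nr1i3 (CAR), the receptor for foreign compounds, read 164, 166 and 159 against 58.6, 122, 114 and 79.5 (-0.85, adjusted p = 0.021). In both, mimic replicates 1 and 4 lay below 2 and 3, and Nr1i3 in PBS replicate 2 (104) lay within the mimic range. Rora, an orphan receptor with an 8mer and 3 matches, fell by 0.66, and Foxo1 and Foxo3, each with a 7mer-A1, by 0.72 and 0.89. Nr1i3 lost its call without mimic replicate 4 or any 1 scramble library (adjusted p from 0.0521 to 0.0608), and Rora and Foxo1 without scramble replicate 1 (0.0706 and 0.0534). Ppara and Nr1i3 had no site. Without mimic replicates 1 and 4, 7 of the 49 were lower, against 971 of all 13636 genes. Relative to library totals alone 11 of the 49 were higher and 1 lower, against 5498 and 110 of all 13636 genes.

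Of 33 uptake and efflux transporters 13 fell and 2 rose (median -0.31). Slco1a1, an organic anion importer, read 232, 241 and 280 with scramble and 53.5, 41.9, 52.3 and 34.8 with mimic (-2.45, SE 0.20, adjusted p = 1.9e-05). Its groups were far apart and all 4 mimic libraries alike. Slco1b2, the main bile acid importer of its family, fell by 0.76. Slc13a3, a dicarboxylate transporter, read 5.23 to 7.71 with scramble and rose to 19.8 to 24.6 with mimic. Without mimic replicates 1 and 4, 6 of the 33 transporters were lower, against 971 of all 13636 genes. Relative to library totals 1 was lower and 5 were higher, against 110 and 5498 of all genes.

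Many enzymes of drug and steroid metabolism fell. Of 73 cytochrome P450 genes 29 fell and 4 rose (median -0.46), and of 17 Ugt genes, the glucuronosyltransferases, 16 fell (median -0.84). The Ugt1a rows share exons and reads and are not independent. Of 15 carboxylesterases 9 fell and 0 rose (median -0.77), and of 15 hydroxysteroid dehydrogenases 9 fell and 0 rose (median -0.51). Cyp3a11, the main drug oxidase of its family, read 1216, 1046 and 867 with scramble and 119, 223, 188 and 247 with mimic (-2.45, adjusted p = 7.7e-05), with reads possibly shared among Cyp3a copies. Ugt2b1 read 433, 441 and 526 against 106, 202, 183 and 89.3 (-1.76, adjusted p = 0.0011). Hsd3b5, a male-biased steroid enzyme, fell from 108 ± 14.5 (SD, n = 3) to 24.6 ± 7.52 (SD, n = 4). Cyp17a1, of steroid hydroxylation, rose by 1.39, with mimic replicate 2 (2.13) close to the highest controls.

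Fatty acid and mitochondrial genes fell in part. Of 12 acyl-CoA thioesterases and relatives 7 fell and 1 rose (median -0.36). Acot1, the cytosolic thioesterase induced by Ppara, read 56.3, 49 and 59.2 with scramble and 5.98, 2.74, 2.92 and 8.35 with mimic (-3.32, SE 0.29, adjusted p = 2.8e-05). Of 37 peroxisome genes 14 fell and 1 rose (Pex10), with 9 of 21 enzymes among them. Ehhadh, the bifunctional enzyme of peroxisomal oxidation, read 256, 176 and 291 with scramble and 105, 128, 166 and 98.8 with mimic (-0.94, adjusted p = 0.0075). Its groups did not overlap, although the lowest scramble value lay near the highest mimic one, and it had no seed site. Of 27 citrate cycle genes 10 fell and 1 rose, Pck2. Pdha1, of pyruvate dehydrogenase (chrX:160122209-160138413), read 79.5, 73.2 and 72.6 with scramble and 43.4, 36.4, 44.7 and 41.3 with mimic (-0.84, adjusted p = 5.4e-05). Relative to library totals 6 of the 21 peroxisomal enzymes were higher and 0 lower, and 4 of the 27 citrate cycle genes were higher and 1 lower. Of all 13636 genes 5498 were higher and 110 lower under that scaling.

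Lipid storage genes included some of the lower ones. Of 23 lipid droplet and lipolysis genes 6 fell and 2 rose (median -0.23). Cidec, which fuses lipid droplets, read 22.8, 13.6 and 8.55 with scramble and 2.69, 3.34, 2.75 and 4.45 with mimic (-1.81, adjusted p = 0.0014), and the scramble libraries differed among themselves more than the mimic ones. Mgll, the monoglyceride lipase, read 131, 103 and 112 against 44.9 to 59.9 (-1.16, adjusted p = 5.2e-05). Slc25a32, the mitochondrial folate carrier, fell from 10.5 ± 0.516 (SD, n = 3) to 5.14 ± 0.33 (SD, n = 4). Krt23, a type I keratin, fell from 5.55 ± 1.25 to 0.209 ± 0.0507 and was in the table only through its control values.

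The genes with the smallest p or the largest change included others outside these groups. Among the higher ones, Orm1 rose by 3.60, Ly6e, an interferon-inducible membrane protein, by 3.01, and Chil3, a chitinase-like protein of monocytes and macrophages, by 2.87. Emp1, an epithelial membrane protein, rose by 2.08 and Tlr13, an endosomal receptor of RNA, by 1.99. Chil3, Emp1 and Tlr13 were in the table only through their mimic values. Among the lower ones were the fatty acid genes Cyp4a14 (-2.29), Acot3 (-2.13) and Aldh3a2 (-1.33), the phospholipase Pla2g6 (-1.29, with a 7mer-A1), the esterase Ces2c (-2.21) and the P450 rows Cyp3a41b (-1.92) and Cyp2c53-ps (-2.19), which may share reads with neighbouring copies. The regulators Maff (-2.04) and Rgs16 (-2.09), the peptidase Mme (-2.01), the hedgehog-binding protein Hhip (-0.99) and the pseudogene Serpina4-ps1 (-2.35) fell as well, the last losing its call without any 1 of 5 libraries (adjusted p from 0.0613 to 0.0819). Aldh18a1 and Entpd1 (-1.01 and -0.97), neighbours on chromosome 19, had nearly equal values in every library, such as 97.4 and 104 in mimic replicate 1, and whether their rows share reads was not tested. Etl4 and Vwa8 fell by 0.87 and 0.92 with small spread, at adjusted p of 5e-05 and 7e-05 (limma).

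Further groups are given beside the shares of all genes, 17.3% higher and 14.7% lower, without a test of a difference. Of 43 urea cycle and amino acid genes 4 rose and 3 fell (median 0.00), of 41 genes of NRF2 and glutathione 9 rose and 5 fell (median -0.09), and of 36 phospholipid genes 8 rose and 5 fell (median -0.01). Of 22 genes of the ATF4 stress response 2 rose and 2 fell. Of 257 zinc finger genes named Zfp, 19 rose and 15 fell, with a median of 0.01. The plot of called shares by list sets these beside the groups above.

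**Figure D5:**
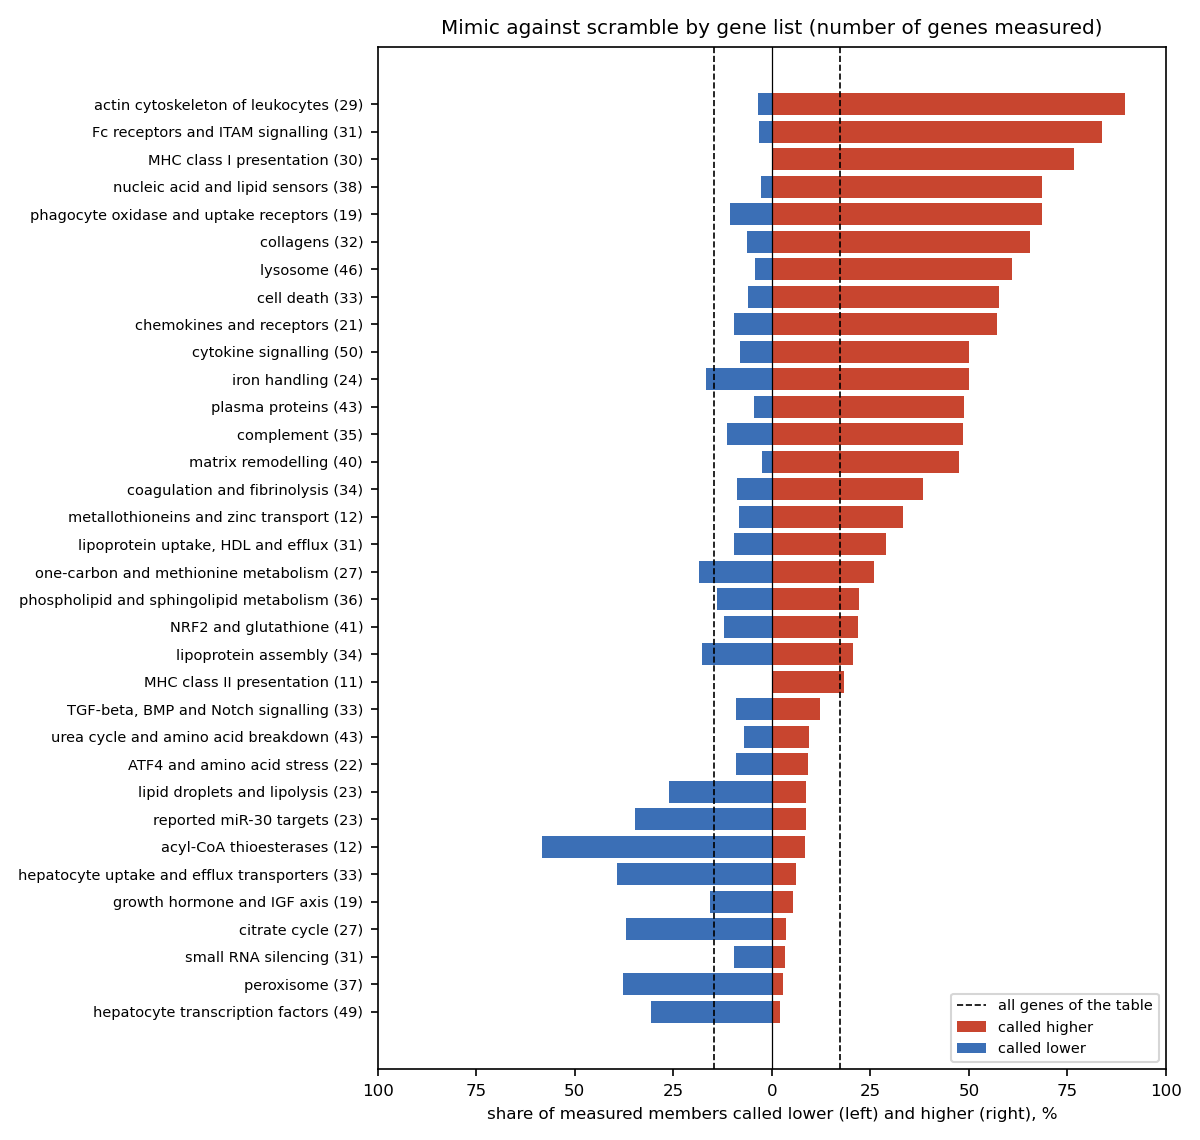
Bars give the share of measured members (%) called higher (right) and lower (left) in the mimic group for each gene list, in the order of the share higher, and dashed lines give the shares over all genes (17.3% and 14.7%). Actin regulators, with 26 of 29 higher, lie at the top, and hepatocyte transcription factors, with 1 of 49 higher and 15 lower, at the bottom of that order. The share lower was largest for acyl-CoA thioesterases, at 7 of 12.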

How the data were processed

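The authors deposited 1 table with a value per gene and library. Its values are a signal, CPM that the authors scaled per library, since the deposited columns sum to between 605536 and 1504311. Within each column 100% of the values were whole multiples of 1 step (tolerance 1e-06), and reads counted were taken as the column sum in steps. The submitters' processing notes name edgeR 3.8.6 in R 3.1.2, bedtools 2.17.0, SAMtools 0.1.19 and Bowtie, as well as FastQC 0.11.3 and bcl2fastq 1.8.4, with build mm10 and no order of steps. Annotation and settings are not given in the sources used here. Of the rows, 54 were identical to another row, so that overlapping or near-identical genes can share reads.

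Values were analysed as log2(value + 1) with limma 3.58.1 (R 4.3.3), in 1 fit of 3 group means over all 11 libraries with a mean-variance trend, two-sided, with Benjamini-Hochberg adjustment over 13636 rows at 0.05. Groups came from the sample titles. Gene lists, described by counts and medians without a test, and the comparison itself were chosen with earlier results of these data known. In each direction the text names the 15 called genes of smallest p and the 15 of largest change among those without overlap. Predicted genes were left out of both. Mttp and members of the lists, families and marker lists are named too. Sec24a, Atxn1 and Hbs1l were added after their values were seen, and Cotl1 was also named outside this rule. UTRs were the longest annotated 3′ UTR on GRCm38 (found for 11456 rows by symbol and for 381 through a former symbol, and not for 1799), and miRNA and promoter sequences came from RefSeq.

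Replicate numbers were checked for pairing: the correlations of deviations from the group means between same-numbered mimic and scramble libraries were -0.110, -0.277 and 0.233. These differ in sign, but so few libraries cannot settle whether same-numbered ones share a batch. The main fit used no pairing. Alternatives covered the pseudocount (0.25), filters on the mean value (1 and 5), other scalings, the replicate block, the libraries fitted, the variance model and leaving out each library. The result of 1 gene is not reported here.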

Additional observations from a re-analysis of the deposited data

Results flagged for a closer look

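In 21 of 314 groups of 4 libraries (6.69%) of the genes named in the text, 1 library lay farther from the rest than Dixon's 95% critical value allows, 7 in the mimic and 14 in the PBS group. Chance flags about 1 group in 20.

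PBS replicate 2 stood apart upward from the other PBS libraries for Cxcl9 (22.2 against 3.97 or less), H2-Aa (54.1 against 15.2 or less), Psmb8 (20 against 9.06 or less), Ccr2 (1.79), Gpnmb (0.838), Saa1 (116 against 33.7 or less) and Xpo1 (12.5). The same library was low for Mia3 (105 against 137 or more), Pdha1 (60.3) and Cd93 (1.34). Interferon, class II and acute phase genes were thus high in 1 library that received no oligomer. Its value for Cxcl9 lay within the mimic range, and its values for Saa1, Gpnmb and Ccr2 below all mimic libraries.

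Other PBS libraries stood apart for Acot1 (86.5 in replicate 1), Oas3 (0.312 in replicate 3), Timd4 (2.19 in replicate 4) and Ppp3ca (23.2 in replicate 4, against 22.3 in each of the others). Among the mimic libraries, replicate 1 was apart for Psmb8 (34.1 against 25 or less), Ppp3ca (12.6) and Cyp3a41b (2.21). Replicate 2 was apart for Ago2 (4.13 against 2.6 or less). Replicate 4 was apart for Acot3 (15 against 4.54 or less), Mme (4.89) and Cfd (4.13 against 0.393 or less). Cfd and Acot3 fell against scramble with that library included, and Cfd lost its call without any 1 of 5 libraries (adjusted p from 0.0607 to 0.136).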

How the results depend on the processing

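Of 157 genes named in the text, 127 could be tested under all 20 alternatives, and 71 of them kept direction and call throughout. The other 30 fell below a minimum mean of 1 or 5, and 26 of them kept both under the remaining alternatives. No gene called in the comparison was called in the opposite direction under any of them. The count of called genes was 2816 with a minimum mean of 5 (1059 of them higher), 2548 without mimic replicates 1 and 4 (971 lower), and 2824 to 4904 over the fits that left out 1 library (1165 to 2305 lower), lowest without scramble replicate 1 and highest without PBS replicate 2. Pex10 and Fcgrt lost their calls without any 1 of 4 and of 6 libraries (adjusted p from 0.0505 to 0.0923 and from 0.0525 to 0.122). The number of genes without overlap was 3478 with the minimum mean of 5, a setting that tests fewer genes. Division by library totals alone moved the median gene by 0.49 and gave 5498 higher and 110 lower genes. There Mttp changed by -0.23 (adjusted p = 0.445), and the genes that changed sign, none passing the test, were Apoa2 (0.025), Bnip3l (0.0063), Cnot6l (0.17), Fcgrt (0.31), Il1rap (0.14), Il6st (0.14), Lpgat1 (0.17), Npc1 (0.11), Sar1b (0.088) and Tnrc6b (0.0055). With library totals relative to the median gene, 3873 genes were called. With the replicate number as a block, 3808 genes were called, 3587 of them shared with the fit without it. The 8mer shift ranged from -0.15 to -0.20. The edgeR and DESeq2 alternatives were not run, because 9 of the columns held too few low values for the check that whole reads can be recovered. A total of 7 libraries limits which small changes can be called.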

Other observations

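Ribosomal protein genes rose in part and by little. Of 53 Rpl rows 16 rose and 0 fell, with a median log2 change of 0.22, and of 33 Rps rows 13 rose and 0 fell, with a median of 0.27. Of 37 Nduf rows, subunits of respiratory complex I, 9 fell and 1 rose (Ndufa4l2), with a median of -0.14. Annexins, which bind membranes under calcium, had 7 of 9 higher and 1 lower, and 6 and 1 of the 8 that met the low-value minimum in both sets. Of 8 matrix metalloproteinases 3 were in the table only through their mimic values, and 3 of the other 5 rose. Of 24 integrin rows 9 rose and 0 fell, and 6 of the 20 that met the minimum in both sets rose. Itgam, the chain of complement receptor 3, rose from 1 ± 0.0905 (SD, n = 3) to 6.33 ± 1.24 (SD, n = 4). Among 18 kinesin genes 5 fell and 0 rose. Of 19 major urinary protein rows, which share reads, 5 fell, with a median of -1.61.

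Pairing of the miR-30c tail beyond the seed did not order the 8mer genes. Their median change was -0.12 with a run of under 4 paired bases (658 genes), -0.19 with 4 (243 genes), -0.17 with 5 (49 genes) and -0.16 with 6 or more (16 genes). Mttp had a run of 7. Hbs1l, which encodes a ribosome rescue factor and had a run of 8, fell from 45.8 ± 6.85 (SD, n = 3) to 29 ± 1.41 (SD, n = 4), a change of -0.63 (limma adjusted p = 0.0068). It was singled out after its values were seen.

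The motif TATAAA, searched on both strands, was in 14.2% of all promoters of the reference table, in 7.54% of the promoters of genes in the table and in 11 of 41 promoters (26.8%) of genes higher by at least 4-fold.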
